A study of Mus musculus with 7 samples.

Results

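The cells described here are the endothelial cells of the mouse ventricular-subventricular zone (V-SVZ), the neurogenic tissue that lines the lateral ventricles, picked from single-cell RNA-seq libraries by the raw counts of a few genes. A kept cell was called endothelial when it held at least 4 unique molecular identifiers (UMIs, each standing for 1 captured RNA molecule) of Cldn5 and Flt1 together and at least 1 UMI of Pecam1 and Egfl7 together. It also had to hold at most 2 UMIs of Rgs5 and Acta2 together, no UMI of Mog, no UMI of Csf1r and at most 1 UMI of Dcx. Of 43346 cells kept across 7 libraries, 1599 (3.69%) met this rule, 742 of them in the 3 control libraries, 616 in the 3 Prdm16 conditional knockout (cKO) libraries and 241 in the single Prdm16-Vcam1 double knockout (DKO) library. The values of these 9 genes chose the cells, so they are given only as a description and are not tested. Because the genes of one cell move together, levels that set these cells apart from all other kept cells are a description as well.

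Endothelial cells line the blood vessels. In the brain they are sealed to each other by tight junctions, take up few vesicles, carry nutrients across with dedicated transporters and pump drugs back into the blood, which together make the blood-brain barrier, and Wnt ligands from neural cells keep this program on through beta-catenin. Along a vessel bed they pass from arterial through capillary to venous identity, with Notch signalling on the arterial side. In the V-SVZ, the planar vessel plexus lies against neural stem cells and their progeny.

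The study asked what the transcription factor Prdm16 does when radial glia turn into adult neural stem cells, and it profiled the V-SVZ of mice of 31 to 33 days by droplet sequencing. The control mice were Prdm16 flox/flox without Cre, the cKO mice were hGFAP-Cre+/- and Prdm16 flox/flox, and the DKO mice carried Vcam1 flox/flox in addition. In each library, tissue of 2 to 3 mice was pooled, so a library is the replicate and no value belongs to a single animal. The hGFAP promoter drives Cre in radial glia and their descendants, and endothelial cells come from mesoderm, outside that lineage. No value here shows whether an exon was lost in them.

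The 7 libraries held from 45758003 to 141353017 UMIs in all and from 735250 to 2204526 UMIs in their endothelial cells, whose median was 3785 UMIs a cell. The methods describe pools of both sexes, but Xist, the RNA of the inactive X chromosome, was at 0 UMIs in the endothelial cells of control 1, cKO 2 and the DKO library and at 275 to 393 CPM (counts of a gene scaled to an equal UMI total in each library) in the other 4. In all remaining cells of those libraries Xist was at 0.407 to 0.492 CPM against 639 to 768 CPM. The Y-linked gene Ddx3y was at 142, 119 and 107 CPM in endothelial cells of control 1, cKO 2 and the DKO library. In the other 4 it was at 37.8 to 51.7 CPM. Uty, also Y-linked, was ordered likewise, at 19.6 to 33.4 against 4.44 to 9.07 CPM, while the Y-linked Kdm5d overlapped between these libraries. Control 1 and cKO 2 are left out together as an alternative for the genes and lists that follow. Endothelial barcodes occurred in a pair of libraries 3 times, 2 of them in control 2 and cKO 1 and 1 in control 1 and cKO 1. The doublet caller Scrublet marked 65 (4.07%) of the endothelial cells, against 3.08% of all kept cells. Of the rule's edges, 33 cells held exactly 4 UMIs of Cldn5 and Flt1 and 29 otherwise eligible cells held 3, while 1405 of the 1599 held 10 or more. The limit on Rgs5 and Acta2 removed the most cells, 934 of the 3207 with enough Cldn5 and Flt1, and for 660 of them it was the only bar.

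Of the genes the rule had used, Cldn5, the main claudin of the barrier, averaged 5473 CPM over the 7 libraries and was seen in 97.8% of the cells, and Flt1, a VEGF receptor, averaged 3711 CPM and was seen in 99.5%, levels that the rule itself set. The label was then described on genes it had not used. These were ranked by their ratio to all other kept cells, so their enrichment is a description. Of the genes at 200 CPM or more in the endothelial cells of every library, the steepest ratio was that of Slco1a4, an organic anion transporter of brain endothelium, at 2364 against 64.1 CPM or 36.9-fold. The receptor of the angiopoietins Tek (34.2-fold), the adhesion molecule Icam2 (34.3-fold), the surface antigen Ly6c1 (34.2-fold), the glutamine transporter Slc38a5 (33.5-fold), the efflux pump Abcb1a (31.8-fold) and VE-cadherin Cdh5 (29.7-fold) followed close behind. All other kept cells include those of the 3207 with enough Cldn5 and Flt1 that failed the rule on another gene. In mural- and microglia-marked cells, picked with at most 1 UMI of Cldn5 and Flt1, Slco1a4 was at 13.9 and 3.35 CPM. All 25 further endothelial markers of a fixed list were detected, from Erg, an ETS factor of the lineage, in 40.0% of the cells to Bsg, a glycoprotein that chaperones lactate carriers, in 99.0%. Bsg was also seen in 79.1% of mural-marked, 81.1% of microglia-marked and 80.6% of all other kept cells, at 831 CPM in the last against 15925 CPM.

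Markers of other cell types were summed without the genes of the rule and without Cx3cr1 and P2ry12, which had marked microglial cells, since those levels were set by selection. Mural cells had also been picked on a UMI of Pdgfrb, Vtn, Myh11 or Kcnj8. These were not left out, and Vtn at least is in the mural list, so selection set part of its sum in mural-marked cells. The remaining 12 pericyte and smooth muscle markers summed to 30.4 to 59.2 CPM in control, 11.5 to 32.8 CPM in cKO and 28.5 CPM in DKO endothelial cells, against 11240 to 29400 CPM in the 822 cells marked as mural. The remaining 9 microglial markers summed to 52.6 to 61.4 CPM in control and 37.2 to 67.9 CPM in cKO endothelial cells, none of them at 0 in every library, and the 9 fibroblast markers to 9.69 to 23.1 and 2.56 to 14.4 CPM. The 9 oligodendrocyte markers besides Mog reached 1745 to 2258 CPM in control, 1760 to 2379 CPM in cKO and 2124 CPM in DKO, where mural- and microglia-marked cells held 774 to 2114 CPM. The 14 markers of astrocytes and neural stem cells reached 3316 to 6663 CPM in control, 3080 to 5502 CPM in cKO and 4648 CPM in DKO, against 47755 to 75834 CPM in microglia-marked and 12212 to 14820 CPM in all other kept cells. Cst3, a protease inhibitor that many cells make, carried much of this sum. Without it the other 13 were at 910 to 2705 CPM in control, 1148 to 2410 CPM in cKO and 1940 CPM in DKO endothelial cells, at 898 to 2276 CPM in microglia-marked cells and at 6530 to 8834 CPM in all other kept cells. The 13 neuroblast and neuron markers besides Dcx summed to 535 to 756 CPM in control, 238 to 810 CPM in cKO and 571 CPM in DKO. The 5 erythrocyte markers, 4 of which are globin genes, summed to 17170 to 28839 CPM in control, 5790 to 41310 CPM in cKO and 39341 CPM in DKO endothelial cells, and to 502 to 7602 CPM in all other kept cells. Hbb-bs, a beta-globin, was seen in 27.2 to 82.2% of endothelial cells depending on the library, and near-identical globin copies share reads, so each globin value is uncertain. The part of these RNAs in the results that follow was not tested, except where a value is given.

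**Figure D1:**
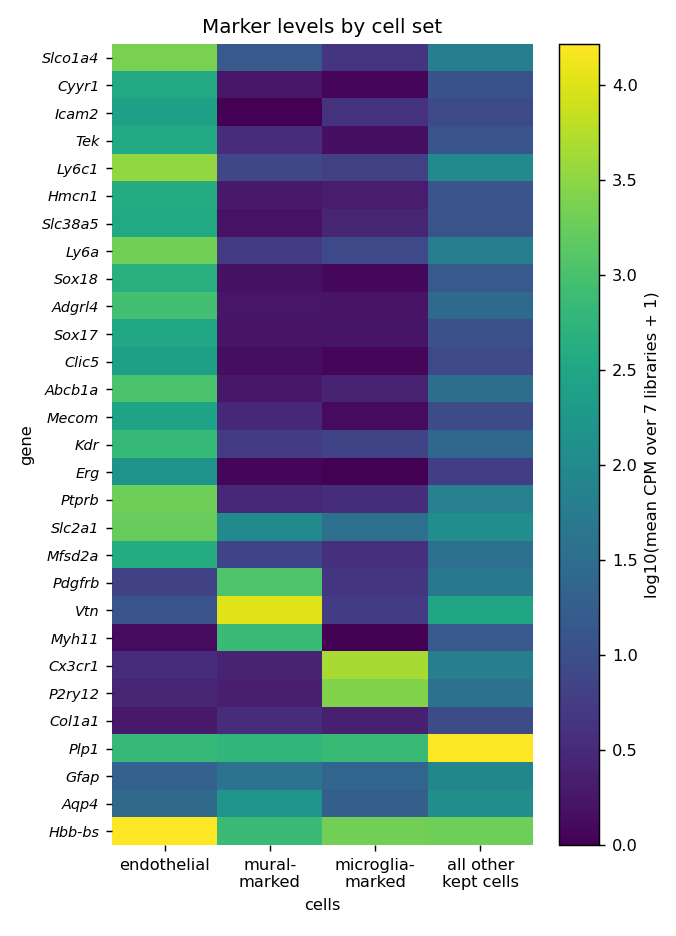
Mean level of 29 genes, as log10 of the mean CPM over the 7 libraries plus 1, in endothelial, mural-marked, microglia-marked and all other kept cells. The upper genes are brightest in endothelial cells (Slco1a4 at 2364 CPM against 64.1 CPM in all other kept cells). Mural and microglial markers, none of them a gene of the endothelial rule, are dark there, and Hbb-bs is bright in endothelial cells at 16476 CPM.

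Endothelial cells made up 2.95%, 3.21% and 3.81% of the kept cells in control 1, 2 and 3. The shares were 4.26%, 6.32% and 3.63% in cKO 1, 2 and 3 and 3.50% in the DKO library, with Wilson intervals that cover counting error only (for cKO 2, 5.30 to 7.51%). The groups overlapped, since cKO 3 lay below control 3. The mean was 3.33% ± 0.439 (SD, n = 3) in control and 4.74% ± 1.40 (SD, n = 3) in cKO, a difference of 1.41 percentage points, about the SD of the cKO libraries and above that of the controls, that did not pass the test (exact two-sided permutation test, p = 0.2, where 3 against 3 can give no p under 0.1). It was 0.622 points without cKO 2. Per mural-marked cell there were 1.80, 2.53 and 1.85 endothelial cells in control and 1.59, 3.93 and 1.78 in cKO, and dissection and dissociation set such shares as well. Median depth was 2761, 3895 and 4734 UMIs in control, 2786, 4083 and 4269 UMIs in cKO and 5632 UMIs in the DKO library, so the ranges of control and cKO overlapped, with a difference in means of −83.8 UMIs (exact permutation test, p = 1.0) that ran from −602 to 385 when single libraries were left out. The median mitochondrial share of UMIs was 3.82 to 4.67% in control, 3.85 to 5.07% in cKO and 2.85% in DKO.

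**Figure D2:**
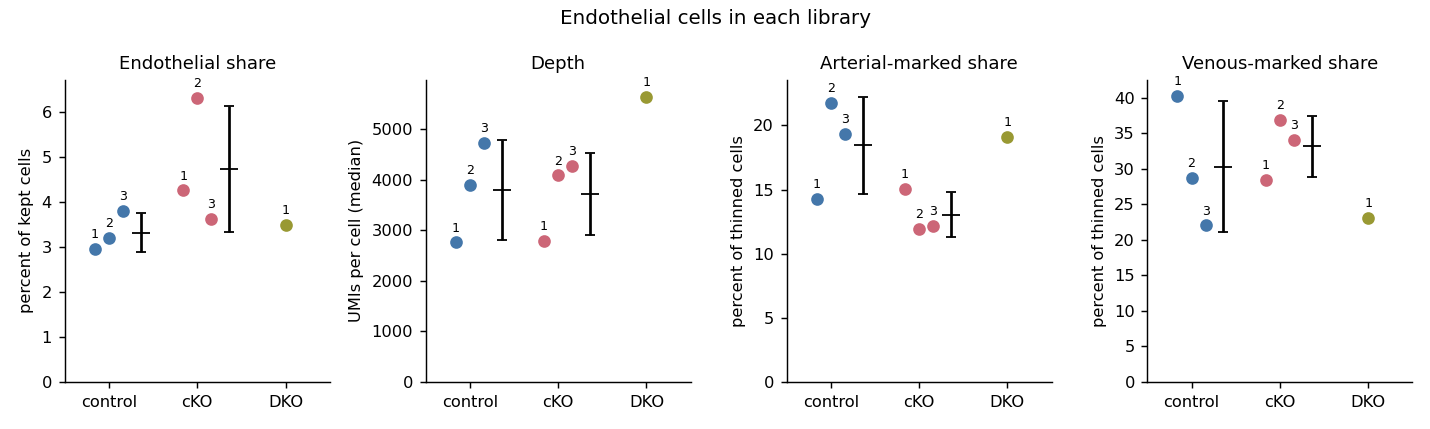
Endothelial share of kept cells, median UMIs per endothelial cell, and shares of endothelial cells thinned to 2000 UMIs that were arterial- or venous-marked, for each numbered library, with bars for the mean and SD of 3 libraries. The arterial-marked share was 14.3 to 21.7% in control and 11.9 to 15.1% in cKO, and cKO 2 had the largest endothelial share at 6.32%.

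The barrier program was well represented. Of 31 tested transporters and efflux pumps, Slc2a1, which carries glucose, was at 1719 CPM and in 92.2% of cells, and Mfsd2a, which carries lipids and keeps vesicle traffic low, was at 409 CPM and in 65.4%. Slc16a1, a lactate carrier, was at 628 CPM and in 65.5%, Abcg2, a drug efflux pump, at 646 CPM and in 80.2%, and Tfrc, the transferrin receptor, at 592 CPM and in 67.5% of cells. Among junction genes, Ocln (occludin) was 21.4-fold and Lsr, a protein of contacts between 3 cells in epithelia and brain vessels, 30.6-fold above all other kept cells, whereas the scaffold Tjp1 was 4.79-fold above and Jam3 stood at 11.1 CPM against 139 CPM elsewhere. The Wnt receptor Fzd4 (13.5-fold), its co-receptor complex members Adgra2 (15.9-fold) and Reck (11.5-fold), the effector Lef1 (22.9-fold) and the targets Apcdd1 (13.6-fold) and Foxq1 (29.3-fold) were all enriched. Percentages of cells with a UMI follow depth, and a UMI can also come from free RNA. In cells that should lack them, Slco1a4 was seen in 2.02% and Cdh5 in 0.777% of microglia-marked cells, against 96.6% and 73.4% of endothelial cells. In mural-marked cells these shares were 7.50% and 0.476%. Library medians were 3978 to 6648 UMIs in microglia-marked, 2980 to 6428 UMIs in mural-marked and 2761 to 5632 UMIs in endothelial cells. Both of the other sets were picked with at most 1 UMI of Cldn5 and Flt1, which limits endothelial RNA in them.

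To see how the cells differed among themselves along the vessel bed, each was thinned to 2000 UMIs, which left out 388 shallower cells and kept 1211. A cell was called arterial-marked with at least 2 UMIs of 10 arterial genes (Bmx, Gkn3, Sema3g, Gja4, Gja5, Vegfc, Efnb2, Fbln5, Cytl1 and Hey1) and more of them than of 7 venous genes (among them Nr2f2, Slc38a5, Ackr1, Vwf and Ephb4), and venous-marked by the converse. By this, 202 cells (16.7%) were arterial-marked, 350 (28.9%) venous-marked, and 305 (25.2%) held no UMI of either list, while 40 cells held 2 or more of both. Levels in the classes were then taken from the full counts of these cells, whose median depth was 3072 to 7978 UMIs by class and library. These classes are ranges along a continuum, and 162 cells held a single arterial UMI, just under the limit. Genes outside the lists separated the classes in every library: of 3881 genes at 50 CPM or more in either class, 282 (7.27%) were higher in arterial-marked cells in 7 of 7 libraries and 353 (9.1%) in venous-marked cells.

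The 10 genes outside the lists with the largest ratio on the arterial side were Col18a1, Mgp, Fbln2, Igfbp3, Egfl8, Stmn2, Alpl, Msx1, Syt15 and Atp2b4. Col18a1, the collagen that yields endostatin, was at 117 CPM in arterial-marked, 3.75 CPM in unmarked and 1.64 CPM in venous-marked cells of the 7 libraries together. Mgp, an inhibitor of calcification, was at 609, 4.21 and 9.86 CPM in the same order, Fbln2, a matrix glycoprotein, at 142, 20.8 and 3.29 CPM, and Igfbp3, which binds insulin-like growth factors, at 238, 7.73 and 15.2 CPM, where 5 of the 37 venous-marked UMIs remained without cKO 2. Of 18 Notch, TGF-beta and BMP genes at 50 CPM or more in either class that did not define the classes, 9 were higher on the arterial side in 7 of 7 libraries and 0 on the venous side, against 7.27% and 9.1% of the 3881 genes at that level. Among the 9 were the receptor Notch1 at 372 against 188 CPM in venous-marked cells, the ligand Dll4 at 171 against 57.1 CPM and the ligand Jag2 at 303 against 97.3 CPM. Unc5b, a netrin receptor, was at 208 CPM in arterial-marked against 15.2 CPM in venous-marked cells, and Sox17, a factor of arterial fate, at 502 against 269 CPM.

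The 10 on the venous side were F5, a Ccl19 entry, Fgfbp1, Lcn2, Flrt2, Car4, Aplnr, Nrp2, Fmo2 and Rnase4. The place of Lcn2 rested on cKO 2, whose venous-marked cells held it at 946 CPM against 2.24 to 55.4 CPM in the other 6 libraries, and without cKO 2 it was at 19.0 CPM, under the minimum of 50. F5, coagulation factor V, had 275 UMIs in venous-marked and 0 in arterial-marked cells, at least 51.8-fold higher against a floor of 3 counts over the 7 libraries together, and Fgfbp1, which releases fibroblast growth factors from the matrix, had 178 and 0, at least 33.6-fold. A Ccl19 entry had 230 and 0 (at least 43.4-fold, or 26.3-fold without cKO 2, which held it at 305 CPM) and has near-identical copies, so its identity is uncertain. Car4, a carbonic anhydrase of the capillary surface, was at 49.4 CPM in arterial-marked, 814 CPM in unmarked and 1597 CPM in venous-marked cells, a step at both ends. Tfrc (197, 518 and 780 CPM), Slc16a1 (232, 581 and 833 CPM) and the organic anion carrier Slc22a8 (206, 387 and 638 CPM) were ordered likewise, and of 26 transporters at 50 CPM or more in either class that did not define the classes 13 were higher on the venous side and 2 on the arterial side in 7 of 7 libraries, against 9.1% and 7.27% of the 3881 genes, while the efflux pump Abcb1a was at 1044, 917 and 1114 CPM and higher on the venous side in 5 of 7. Slc38a5, itself a glutamine transporter, was among the genes that defined the venous class. In all endothelial cells it held 421 of 815 venous-list UMIs in control 1, 228 of 525 in control 2 and 626 of 1401 in control 3. It held 308 of 629, 379 of 986 and 553 of 1068 in cKO 1, 2 and 3 and 471 of 1272 in the DKO library. The part of this choice in the transporter levels was not tested. The interleukin-1 receptor Il1r1 was at 7.26 CPM in arterial-marked and 62.4 CPM in venous-marked cells and the adhesion molecule Icam1 at 12.3 and 53.0 CPM, both in 7 of 7 libraries.

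Both genes targeted in the study varied along the bed as well. Prdm16 was at 46.5 CPM in arterial-marked, 30.7 CPM in unmarked and 11.1 CPM in venous-marked cells, from 64 and 27 UMIs at the ends, and was higher on the arterial side in 7 of 7 libraries. Vcam1, which leukocytes bind, was at 240, 32.8 and 135 CPM, also arterial above venous in 7 of 7 libraries, and lowest in the unmarked cells.

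**Figure D3:**
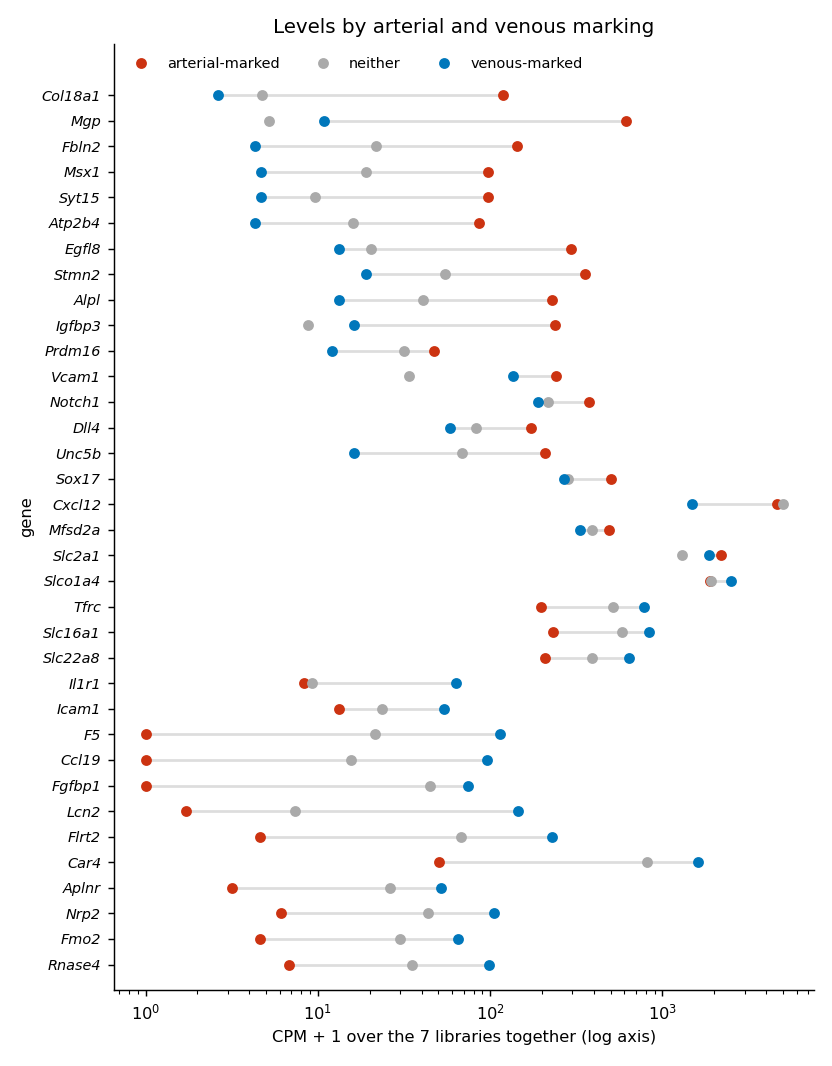
Level of 35 genes in arterial-marked, unmarked and venous-marked endothelial cells, as CPM plus 1 over the 7 libraries together on a log axis. Cells were classed on counts thinned to 2000 UMIs and levels taken from their full counts. Col18a1 runs from 1.64 CPM in venous-marked to 117 CPM in arterial-marked cells, and Car4 runs the other way, from 49.4 CPM in arterial-marked to 1597 CPM in venous-marked cells.

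The targeted gene was checked first. Prdm16 (chr4:154316125-154636873, minus strand, mm10) was at 25.8, 14.5 and 22.5 normalised CPM in the endothelial cells of control 1, 2 and 3, at 22.9, 20.6 and 17.8 in cKO 1, 2 and 3 and at 53.4 in the DKO library. Normalised CPM are CPM after scaling each library by trimmed mean of M values, and all per-library levels of the genotype comparison are in this unit. The control and cKO ranges overlapped, and the log2 fold change was −0.08 with a standard error (SE) of 0.30. Counting at the 3′ end need not see a deleted internal exon, so this does not check the deletion, and it was seen in 10.3% of endothelial cells. Vcam1 (chr3:116109949-116129688, minus strand), intact in control and cKO mice, was at 94.4, 67.1 and 89.5 in control, 49.2, 383 and 85.0 in cKO and 43.5 in DKO endothelial cells. Its log2 fold change of 1.00 (SE 0.88) came from cKO 2 and was −0.31 without that library.

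Across genes, cKO and control endothelial cells differed in 1 gene. Of 10144 genes tested with edgeR's quasi-likelihood test and Benjamini-Hochberg adjustment over all of them, 1 was higher in cKO and 0 were lower at an adjusted p under 0.05, which is 0.00986% of those tested. At an unadjusted p under 0.05 there were 227 (2.24%), and DESeq2 called 2. The ranges of the 3 control and 3 cKO libraries did not overlap for 765 genes (7.54%), 379 higher (3.74%) and 386 lower (3.81%) in cKO, and the median log2 fold change was 0.01 with 51.1% of genes above 0. The controls were littermates of mice with Cre, and the labels do not say which libraries share litters, so p-values measure the spread between these pools of mice.

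The called gene was Agt (chr8:124556534-124569706, minus strand), angiotensinogen, the precursor of the vasoactive angiotensins, which astrocytes make in the brain. It stood at 2.98, 3.95 and 5.62 normalised CPM in control, 16.0, 34.3 and 45.3 in cKO and 10.4 in the DKO library. Every cKO library lay above every control library and above the DKO library, with a log2 fold change of 2.82 (SE 0.44, edgeR adjusted p = 0.0371). The counts were few, 3, 3 and 12 UMIs in control and 14, 25 and 56 in cKO, held by 3, 3 and 10 and by 5, 9 and 19 cells. In cKO 2 a single cell held 17 of the 25. Without the cell that held the most Agt in each library, plain CPM was 2.16, 2.75 and 4.12 in control and 8.98, 10.4 and 34.9 in cKO, still without overlap. The same direction was measured in all other kept cells, at 13.5 to 17.7 CPM in control and 65.0 to 190 CPM in cKO, in microglia-marked cells, at 2.99 to 6.85 and 18.4 to 35.3 CPM, and in mural-marked cells, at 5.78 to 35.5 and 76.5 to 97.9 CPM. The log2 effect in endothelial cells was 0.80 higher than in mural-marked cells (SE 0.53, edgeR interaction, unadjusted p = 0.148). It was 0.19 higher than in microglia-marked cells (SE 0.72, edgeR interaction, unadjusted p = 0.791). Neither difference passed, which does not show that the effects are equal, and the part of free RNA in the endothelial counts was not tested. The call was lost without control 1 (edgeR adjusted p = 0.137), control 2 (0.680), control 3 (0.0563), cKO 2 (0.0652) or cKO 3 (0.490), without control 1 and cKO 2 together (0.102), and also without the cells marked by Scrublet (0.270).

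Prm1, protamine 1, which packs sperm DNA, had 0 UMIs in control endothelial cells and 15, 4 and 36 UMIs in cKO 1, 2 and 3, a CPM at least 23.9-fold higher against a floor of 3 counts over the control libraries together, or at least 14.6-fold without cKO 3 and 10.3-fold without control 3. The DKO library held 34 UMIs. edgeR gave an adjusted p of 0.162, or 0.000155 without control 1 and cKO 2, and DESeq2 one of 0.00331. Prm1 was at 38.8 to 111 CPM in all other kept cells of the cKO libraries, above its endothelial level of 5.13 to 28.1 CPM, and at 0.0368 to 0.0973 CPM in those of the control libraries. The gene lists set Prm1 among targeted and Cre-linked genes, and the cKO and DKO mice carry hGFAP-Cre while the controls do not. Whether these UMIs come from the Prm1 gene itself or from the transgene was not tested.

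**Figure D4:**
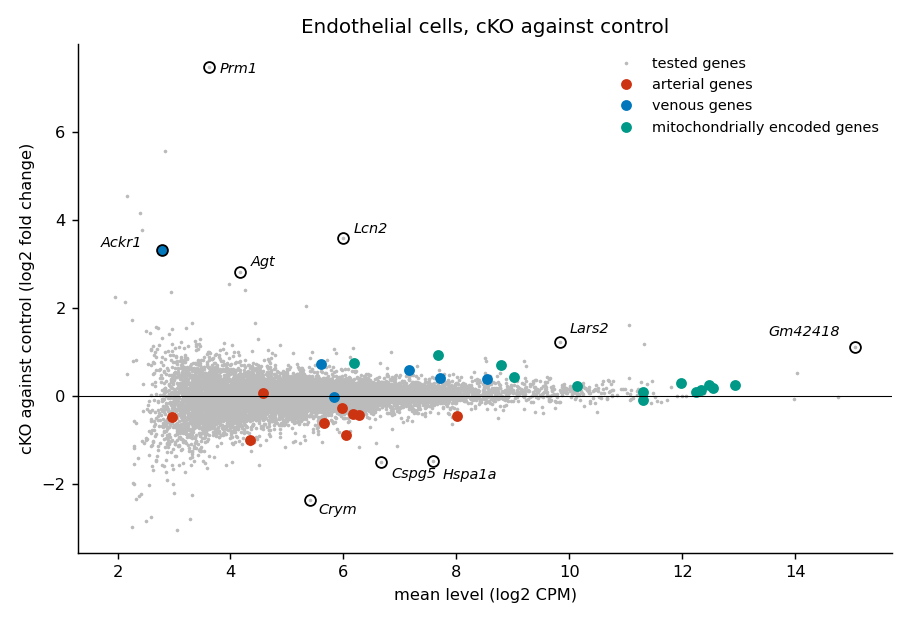
Log2 fold change of cKO against control in endothelial cells over mean log2 CPM for 10144 genes, with arterial, venous and mitochondrially encoded genes in colour and single genes ringed. Agt lies at 2.82 and Prm1 at the top, 8 of 9 arterial genes lie below 0 and 12 of 13 mitochondrially encoded genes above it.

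Control and cKO libraries of the same number deviated together from their group means, and with the number as a block edgeR called 9 genes (0.0887%), 4 higher and 5 lower. Higher beside Agt and Prm1 were Gm42418, an entry that overlaps ribosomal RNA, at 8239, 10025 and 49036 in control and 32746, 39553 and 73480 in cKO, and Lars2, the mitochondrial leucyl-tRNA synthetase, at 238, 328 and 1101 against 904, 1369 and 1675. In both, control 3 lay above cKO 1, and each cKO library lay above the control of its number. Both statements also held in mural-marked, microglia-marked and all other kept cells. In the last, Gm42418 was at 2360, 2618 and 25241 CPM in control and 10154, 16026 and 38682 CPM in cKO, and Lars2 at 81.3, 111 and 549 against 272, 588 and 927 CPM. The gene lists set Lars2, like Gm42418, among entries of ribosomal and nuclear RNA. Whether the Lars2 UMIs come from its own transcript was not tested. Lower were Hspa1a and Hspa1b, near-identical heat shock genes whose reads cannot be told apart with certainty. Hspa1a was at 120, 383 and 224 in control, 86.9, 100.1 and 76.1 in cKO and 341 in the DKO library, with every cKO library below the others. The log2 fold change was −1.35 with the block (edgeR adjusted p = 0.00673), −1.46 without it (SE 0.39, edgeR adjusted p = 0.999) and −1.89 without control 1 and cKO 2 (edgeR adjusted p = 0.00105). Each cKO library was below the control of its number in all other kept cells too, at 80.0, 85.7 and 44.6 CPM in control and 54.6, 66.8 and 33.9 CPM in cKO, and in microglia-marked cells, at 933, 588 and 315 against 465, 322 and 210 CPM. In mural-marked cells, at 530, 665 and 300.4 against 396, 261 and 303 CPM, cKO 3 lay just above control 3, and Hspa1b in all other kept cells was higher in cKO 2 (93.5 CPM) than in control 2 (59.9 CPM).

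The other 3 genes called lower with the block are genes of neural cells. Cspg5, a proteoglycan of glia and neurons, was at 217, 81.6 and 149 in control and 83.5, 26.1 and 48.6 in cKO endothelial cells. Crym, a thyroid hormone binding protein, was at 129, 13.2 and 42.2 against 18.3, 5.49 and 11.3, and Sox11, a factor of newborn neurons, at 152, 36.8 and 117 against 84.7, 10.97 and 42.1. All 3 were highest in control 1 and overlapped between groups. In all other kept cells they were at 441 to 577 CPM in control and 222 to 414 CPM in cKO for Cspg5, at 200 to 206 and 49.8 to 164 CPM for Crym and at 948 to 1418 and 526 to 927 CPM for Sox11. The part in these 3 genes of the neural markers given above was not tested.

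No arterial gene passed the test between cKO and control. Of 9 tested, 8 had a negative fold change and 1 a positive one, with a median of −0.46 (log2) against 0.01 over all genes, and −0.59 for the DKO library against control. Unadjusted p was under 0.05, with the lower level in cKO, for 3 of the 9, against 1.21% of all genes. Gja4, a connexin of arterial gap junctions, was at 24.8, 31.6 and 23.9 in control, 9.15, 19.2 and 12.1 in cKO and 12.2 in DKO (log2 fold change −0.99, SE 0.33). Vegfc, a ligand of the lymphatic VEGF receptor, was at 44.7, 125 and 88.0 against 51.5, 37.0 and 49.4 (−0.87, SE 0.32), and Bmx, a kinase of arterial endothelium, at 41.7, 61.8 and 74.9 against 44.6, 41.1 and 33.2 (−0.62, SE 0.25). Gja4 and Efnb2, the ephrin of arteries, were the 2 genes without overlap, against 3.81% of all genes, and both were as low in the DKO library as in cKO. In edgeR the adjusted p of each was 0.999.

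These genes share few cells. The 9 genes were seen in 1.94 to 22.3% of endothelial cells, and in cKO 2 a single cell held 11 of 14 Gja4 UMIs and 1 held 135 of 279 UMIs of Gkn3, a secreted gastrokine of brain arteries, while in control 2 a single cell held 161 of 250 Gkn3 UMIs. With the largest cell of each library removed, the summed arterial level was 587, 655 and 690 CPM in control, 377, 504 and 330 CPM in cKO and 414 CPM in the DKO library, without overlap, whereas the full sums of 659, 922 and 753 CPM and 478, 709 and 374 CPM overlapped. Without the Scrublet-marked cells the list's median was −0.99 and 9 of 9 genes were negative, and without control 1 and cKO 2 it was −0.88 with 8 of 8 negative. Leaving out cKO 3 brought it to −0.24. The arterial-marked share of thinned cells counts cells classed by these same genes, so it is not separate from their RNA. There were 22, 25 and 57 such cells in control, 28, 10 and 21 in cKO and 39 in the DKO library. This share was 14.3%, 21.7% and 19.3% in control, 15.1%, 11.9% and 12.1% in cKO and 19.1% in the DKO library. It was 18.4% ± 3.80 (SD, n = 3) in control and 13.0% ± 1.75 (SD, n = 3) in cKO, a difference that did not pass (exact permutation test, p = 0.2).

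Of 6 venous genes 5 were positive, with a median of 0.50 that rested on 1 library. Nr2f2, the factor that sets venous fate, was at 26.8, 34.2 and 43.1 in control and 28.6, 109.7 and 45.3 in cKO, and Vwf, the von Willebrand factor, at 191, 188 and 160 against 201, 340.1 and 174. In both cases cKO 2 stood apart and the other cKO libraries lay within or near the control range. Ackr1, a chemokine scavenger of venules, had a log2 fold change of 3.31 from 32 UMIs in 3 cells of cKO 2, 26 of them in 1 cell. Without cKO 2 the venous median was 0.08, and without control 1 and cKO 2 it was 0.11. The venous-marked share was 40.3%, 28.7% and 22.03% in control and 28.5%, 36.9% and 34.1% in cKO (exact permutation test, p = 0.7).

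In the barrier lists no gene passed the test. Of the 31 transporters and pumps, 23 had a positive and 8 a negative fold change, with a median of 0.14. Slc2a1 was at 1614, 2275 and 1183 in control and 1528, 2419 and 1163 in cKO, Abcb1a at 960.4, 1168 and 978 against 1113, 1275 and 1019, and Mfsd2a at 391, 479 and 309 against 458, 510.1 and 299. The largest positive change was that of Tfrc (0.69, SE 0.27), at 460, 522 and 391 against 654, 1086 and 477, where cKO 3 fell within the control range. Slc39a8, a carrier of zinc and manganese, at 119 to 159 in control and 161 to 189 in cKO, was the 1 member of 31 higher without overlap, a share near the 3.74% of all genes. In the junction list 11 of 15 were positive, median 0.12. Cdh5 was at 419, 458 and 461 in control and 485, 507 and 512 in cKO, Jam2 at 207 to 233 against 240 to 260, and F11r at 122 to 141 against 142 to 173, all higher without overlap, while Jam3 was lower without overlap (−0.87, SE 0.42). These 4 of 15 stand against 7.54% of all genes, and all adjusted p were 0.999.

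Wnt signalling genes were positive in 16 of 20 cases, with a median of 0.12 and no gene past the test. Nkd1, a feedback inhibitor, had the largest value (0.51, SE 0.27), from 232, 163 and 149 in control and 243, 366 and 172 in cKO, followed by Adgra2 (0.44, SE 0.32) and Apcdd1, another inhibitor and target (0.40, SE 0.23), at 412, 430.3 and 386 against 406, 732 and 479. For both Nkd1 and Apcdd1 cKO 2 was the highest library and the groups overlapped. The list's median was −0.07 without control 1 and cKO 2 and −0.01 without control 3, and that of the transporters was −0.002 without control 1 and cKO 2 and 0.04 without cKO 2, so these medians rested on a few libraries.

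Among receptors and ligands of the VEGF and angiopoietin families, 9 of 18 were positive (median 0.01) and 4, Cdh5 among them, were higher without overlap, against 3.74% of all genes. The main VEGF receptor Kdr was at 678, 725 and 714 in control and 613, 720 and 777 in cKO. The groups of Flt4, the receptor of Vegfc, did not overlap, at 36.8 to 51.3 against 53.4 to 63.1, nor did those of the co-receptor Nrp2, at 32.9 to 47.3 against 48.0 to 71.2 with 70.2 in the DKO library. Vegfa, the ligand itself, did not overlap either, at 9.93, 7.90 and 10.8 against 20.6, 35.7 and 13.0 (log2 fold change 1.16, SE 0.40). Without the cell with the most Vegfa in each library it was at 8.69, 5.48 and 8.21 CPM in control and 8.95, 5.18 and 6.35 CPM in cKO, and in cKO 2 and cKO 3 that cell had the same UMI total, 8551 and 20902, as the one with the most Agt.

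Other endothelial programs showed no called gene. Of 21 Notch, TGF-beta and BMP genes 11 were positive (median 0.04), of 20 shear-responsive and vascular tone genes 13 (0.12), of 29 transcription factors 18 (0.10), of 24 basement membrane genes 13 (0.01), of 8 capillary genes 4 (0.05), of 12 genes of sprouting tip cells 4 (−0.11) and of 15 leukocyte adhesion and inflammatory genes 10 (0.08). Cav1, the coat protein of caveolae, at 251 to 257 in control, 267 to 344 in cKO and 307 in DKO, was the 1 of the 20 shear and tone genes higher without overlap, near the 3.74% of all genes. Lcn2, an iron-binding acute phase protein, had the largest value in these lists, 3.59 (SE 1.97), from 312 UMIs in cKO 2, of which 183 were in 1 cell. Of 29 genes of antigen presentation and interferon response, 22 were positive (median 0.20). B2m, the light chain of MHC class I, was at 610, 715 and 783 in control and 778, 1052 and 974 in cKO, and the class I gene H2-T22, whose relatives share sequence, at 39.7 to 44.5 against 52.1 to 65.2. H2-T22 and Xaf1, an interferon-induced gene, were the 2 of 29 higher without overlap, against 3.74% of all genes, and 1 was lower, against 3.81%. This was H2-Q6, which has near-identical relatives and few counts, at 2.98, 17.1 and 3.75 in control and 1.14, 2.74 and 0.809 in cKO (−2.21, SE 1.09), the largest change of the list in either direction. That list's median was 0.05 without control 1 and cKO 2.

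Of 13 mitochondrially encoded genes 12 were positive in cKO, with a median of 0.25, and the median was −0.51 for the DKO library. Of the 13, 4 were higher without overlap, against 3.74% of all genes: mt-Co2, a subunit of cytochrome oxidase, at 5411 to 5547 in control and 6060 to 7165 in cKO, mt-Nd5 and mt-Nd2, of complex I, and mt-Atp8, of ATP synthase, at 97.3, 80.3 and 234 against 255, 254 and 295. None passed the edgeR test with all libraries and the expression filter. mt-Atp8 passed without that filter, without control 3 and among the libraries of Cell Ranger 6.0.1. Without control 3 and within that version, Gm42418 and Lars2 were the other genes called. The median mitochondrial share of the cells is given above, and its part in these values was not tested. Nuclear genes of oxidative phosphorylation were positive in 65 of 76 cases, at a median of 0.13 that was 0.32 without control 3, −0.02 without control 1, −0.03 without cKO 3 and 0.05 without control 1 and cKO 2. Glycolysis genes were positive in 4 of 18 (−0.09), cholesterol synthesis genes in 11 of 20 (0.03) and cell cycle genes in 5 of 13 (−0.07).

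Immediate early genes, which dissociation can induce, were positive in 8 of 22 cases (median −0.04), and this turned on single libraries. Their median was −0.43 with 1 of 22 positive without control 1 and cKO 2, −0.37 with 1 of 22 positive without cKO 2, and 0.23 with 13 of 22 positive without cKO 3. It was 0.17 without control 2, 0.03 without cKO 1 and −0.20 without control 3. Lower without overlap were 3 of 22, against 3.81% of all genes, namely Ier5, Fosb and Jund, with Fosb at 162, 171 and 177 in control, 94.96, 139 and 119 in cKO and 108 in the DKO library (−0.54, SE 0.19), and Jund at 933 to 982 against 750.2 to 827. Of the heat shock list 13 of 20 were positive (0.16). Without overlap, 1 of the 20 was higher and 2 were lower, Hspa1a among the lower, against 3.74% and 3.81% of all genes. Globin levels did not follow genotype, with Hbb-bs at 10946, 15868 and 11393 in control, 27568, 23379 and 4013 in cKO and 24432 in the DKO library, the lowest of all in cKO 3.

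Beside these lists, 8 genes higher and 8 lower in cKO were named by rank of unadjusted p among genes with a fixed minimum level, all with an adjusted p of 0.999 in edgeR. Higher were Tlr3, a sensor of double-stranded RNA, at 23.8 to 29.5 in control and 42.9 to 49.4 in cKO (0.72, SE 0.24), Aebp2, a Polycomb cofactor, at 40.8 to 45.7 against 59.9 to 75.4, Usp53, linked to tight junctions, at 146 to 194 against 205 to 315, the Ras activator Sos1, at 54.0 to 65.5 against 77.7 to 106, and Ctla2b, a protease inhibitor, at 42.1 to 60.0 against 71.3 to 82.4, as well as Rps6ka3, Ly6h and Mrpl22. Lower were Ttc28, at 101.3 to 110.2 in control and 67.5 to 77.7 in cKO (−0.53, SE 0.19), the cell cycle kinase Cdk4, at 94.1 to 132 against 57.6 to 80.1, Mgst1, a glutathione transferase, at 47.7 to 65.8 against 26.7 to 44.6, and Gsn, gelsolin, at 34.76 to 50.002 against 8.23 to 26.3, as well as Chd7, Fbln2 and Hspa1a. Cldn11, a claudin of myelin, completed the lower set at 80.1 to 94.7 against 30.2 to 63.1, while of the 9 oligodendrocyte markers tested, Cldn11 included, 3 were positive and 6 negative, with a median of −0.15. Gsn averaged 32.0 CPM in endothelial, 215 CPM in mural-marked and 629 CPM in all other kept cells, and Cldn11 67.5, 65.1 and 1535 CPM. The log2 fold changes of Gsn and Cldn11 were −0.99 and −0.80 in mural-marked and −0.73 and −0.97 in microglia-marked cells. The part of RNA from other cells in both genes was not tested. The arterial gene Fbln2, which arterial-marked cells held at 142 CPM, was at 29.8, 25.001 and 52.0 in control, 12.6, 27.4 and 17.0 in cKO and 61.0 in the DKO library.

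**Figure D5:**
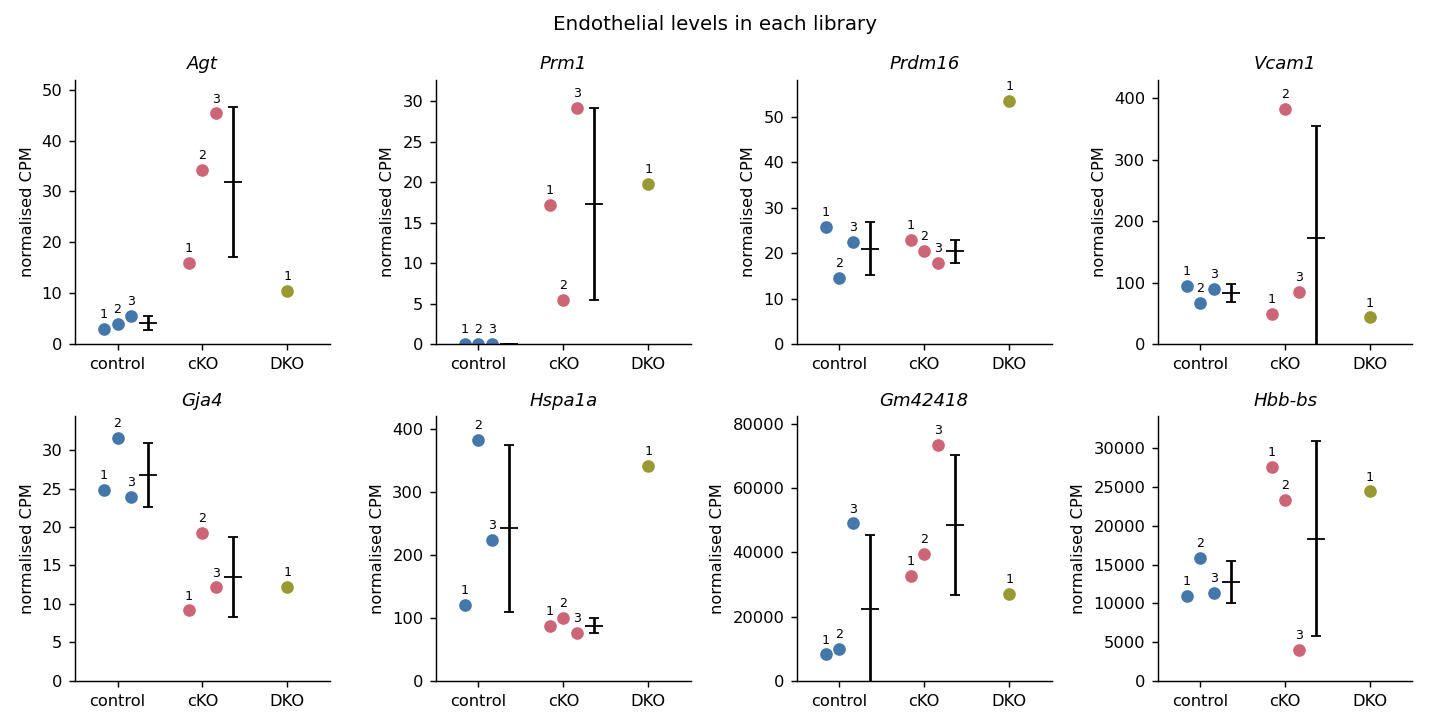
Normalised CPM of 8 genes in the endothelial cells of each numbered library, with the mean and SD of 3 libraries as bars, cut at 0 where they reach below it. Agt at 2.98 to 5.62 in control and 16.0 to 45.3 in cKO, Gja4 and Hspa1a do not overlap between control and cKO, cKO 2 alone is high for Vcam1 at 383, and Hbb-bs is lowest in cKO 3 at 4013.

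The genotype effect in endothelial cells was also compared with that in mural-marked and in microglia-marked cells of the same libraries. Mural-marked cells held other RNA as well, with 9 ependymal markers at 1502 to 5696 CPM against 498 to 1232 CPM in all other kept cells, and Prm1 at 55.6, 4.50 and 148 CPM in cKO 1, 2 and 3 against 38.8, 74.4 and 111 CPM, and the part of that RNA in the comparison was not tested. Against mural-marked cells, 0 of 11835 genes (0.0%) passed in edgeR, with 270 (2.28%) at an unadjusted p under 0.05. The lowest unadjusted p was that of Cmtm8, a membrane protein, with log2 fold changes of −0.14 in endothelial and −1.98 in mural-marked cells. Without control 3 this comparison called 31 genes. Against 694 microglia-marked cells, 2 of 11210 genes (0.0178%) passed, with 383 (3.42%) at an unadjusted p under 0.05. Fn1, fibronectin, was at 963 CPM in endothelial cells on average and had a log2 fold change of 0.19 there, and it was at 15.6, 12.01 and 36.1 in control and 0, 0 and 1.85 normalised CPM in cKO microglia-marked cells. Hist1h2ae, a histone gene, had a log2 fold change of −0.72 in endothelial and 2.46 in microglia-marked cells. No gene passed without control 3, without cKO 3 or at 5% mitochondrial UMIs or less.

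The DKO library, which has no replicate, gives values without a test. Beside its Prdm16 level of 53.4, above all 6 other libraries, it held Agt at 10.4, between control and cKO, and Vcam1 at 43.5, below all 6. Its arterial genes Gja4 (12.2) and Gkn3 (158) lay in the cKO range, while its arterial-marked share of 19.1% and its Hspa1a (341) lay in the control range. The Notch ligand Dll4 was 1.26 lower on the log2 scale than the control mean and the homeobox factor Hhex 1.29 lower, whereas the amino acid carrier Slc7a5 was 1.05 higher.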

How the data were processed

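Single cells of the dissected V-SVZ were sequenced as 10x Genomics 3′ libraries, and the authors made a matrix of raw UMI counts per gene and barcode for each library with Cell Ranger against mm10. Per the file headers, version 6.0.1 made the matrices of control 1 and 2 and cKO 1 and 2 and version 6.1.1 those of control 3, cKO 3 and DKO, so the version differs within both groups. The deposited count matrices were used as they are. Cells with 500 to 7000 genes and at most 10% mitochondrial UMIs were kept, 43346 of 65049 barcodes.

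UMIs of the endothelial cells were summed per library, since cells of one library are not replicates. The sums were tested with edgeR 4.0.16 in R 4.3.3 (filterByExpr, TMM, robust quasi-likelihood fit of all 7 libraries in 3 groups), with the 9 selecting genes left out of the test and Benjamini-Hochberg adjustment at 0.05. Interactions with mural- and microglia-marked cells had the library as a block. Mural-marked cells held at least 4 UMIs of Rgs5 and Acta2 and at least 1 of Pdgfrb, Vtn, Myh11 and Kcnj8. Microglia-marked cells held at least 2 of Csf1r and at least 2 of Cx3cr1 and P2ry12. Both sets held at most 1 of Cldn5 and Flt1. Single values per library were compared by exact two-sided permutation tests (SciPy 1.17.1), for which the smallest p is 0.1. Doublets were marked with Scrublet in scanpy 1.11.5 at an expected rate of 0.08 and left in. The edgeR comparison, the edgeR interaction and DESeq2 were tried on simulated counts. DESeq2 1.42.0, a fit with the replicate number as a block, and other filters, gates and library sets were the alternatives. The members and the 33 gene lists were chosen with earlier results of these data known. Not every gene of the lists is reported here by name. Genes were named from the lists, from the calls, from the 8 lowest p in each direction above a minimum mean level (log2 CPM 5), and from the 20 or 10 largest ratios between cell sets, and the genes called with the replicate block and single genes of the DKO library were chosen after their values were seen. Deviations from the group means correlated at 0.25, 0.17 and 0.41 between control and cKO libraries of the same number and at −0.30 to 0.03 between those of different number, over genes with a mean log2 CPM of 5 or more. The labels do not state what a number shares, and the study says only that controls were littermates. Coordinates are those of GENCODE release 21 of mouse, in which 99.6% of gene identifiers were found.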

Additional observations from a re-analysis of the deposited data

Results flagged for a closer look

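The genotype effect on 2 genes differed between endothelial and microglia-marked cells in edgeR's interaction test. The effect within each cell set came from a separate fit, so these effects need not subtract exactly to the interaction. For Fn1 the log2 effect of cKO against control was 4.67 higher in endothelial cells than in microglia-marked cells (SE 0.72, adjusted p = 0.00787), being 0.19 in endothelial cells, which make this matrix protein, and −4.45 in microglia-marked cells. The microglia-marked cells held few Fn1 UMIs, 11, 4 and 30 in control and 0, 0 and 1 in cKO, and numbered only 29 in cKO 2. For Hist1h2ae, a replication-dependent histone gene, the difference was −3.06 (SE 0.52, adjusted p = 0.0419), with −0.72 in endothelial and 2.46 in microglia-marked cells, where the levels were 14.2, 6.005 and 40.9 normalised CPM in control and 31.7, 115 and 235 in cKO. Neither passed in edgeR without control 3, without cKO 3 or at 5% mitochondrial UMIs or less. Hist1h2ae also missed the threshold without control 2 (edgeR adjusted p = 0.104), cKO 2 (0.187) or the DKO library (0.0567).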

How the results depend on the processing

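The comparison of cKO with control across genes called 1 gene. It called 2 with DESeq2, 2 with the Cell Ranger version as a block, 9 without an expression filter and 9 under the replicate block. It called 3 within version 6.0.1 and 3 without control 1 and cKO 2, an alternative chosen after seeing the data. It called 0 without the DKO library, 0 at 5% mitochondrial UMIs or less, 0 without Scrublet doublets, 0 with Cldn5 and Flt1 at 2 or more, 0 at 8 or more and 0 at equal cell numbers. Leaving out single libraries gave 0 to 3, with 0 without control 2 or cKO 3 and 3 without control 3. The mural interaction called 0 genes, 1 without a filter and 0 to 31 without single libraries (2 without control 1, 31 without control 3). The microglial one called 2, 19 without a filter, 1 without the DKO library, 0 at 5% mitochondrial UMIs and 0 to 15 without single libraries (15 without cKO 1, 5 without control 1, 1 without control 2, 0 without control 3 or cKO 3). The endothelial share differed by 1.41 points, by −0.178 within version 6.1.1 (cKO 3 against control 3 only) and by 0.622 to 1.97 without single libraries. Within version 6.0.1 the shares were 2.95% and 3.21% in control and 4.26% and 6.32% in cKO. Median UMIs differed by −83.8, by 24 with the looser gate, 149 at 5% mitochondrial UMIs, 107 within version 6.0.1 and −602 to 385 without single libraries (379 without cKO 1). The venous-marked share differed by 2.84 points, by −1.78 within version 6.0.1 and by −1.31 to 7.80 without single libraries, and the arterial-marked share by −7.50 to −3.77. With the replicate number as a block, these shares and the median UMIs kept their differences, and the exact sign-flip p was 0.5 for the endothelial and arterial-marked shares, 0.75 for the venous-marked share and 1.0 for UMIs, where 3 pairs can give no p under 0.25. The cause of these shifts was not tested.

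Of 1610 values of 74 named genes under 22 alternatives, 13 lost a call, all of them Agt, whose log2 fold change stayed between 2.27 and 3.40, and 26 gained one. Depth limits the rarer genes: the fewest endothelial cells in a library were 118, in cKO 2, and the fewest endothelial UMIs 735250, in control 2. For each of Agt, Ackr1, Lcn2 and Vegfa most UMIs of cKO 2 lay in a single cell, not the same one for all 4. Intervals and floors cover counting error only.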
